A study of Mus musculus with 16 samples.

Results

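The Pellino and TRAF families of signalling proteins were examined as 9 genes, Peli1, Peli2, Peli3, Traf1, Traf2, Traf3, Traf4, Traf5 and Traf6, out of the 39179 genes counted in each sample. The members are the 3 Pellino genes and the TRAF genes numbered 1 to 6, and Traf7 was followed with the other genes of the pathway. They came to attention through 1 member, Peli2, which was picked because its transcript was higher in cells without PEP, so the difference in the level of Peli2 between genotypes is given as a description with no test. PEP is the tyrosine phosphatase encoded by Ptpn22. The RNA came from bone marrow-derived mast cells (BMMCs), which had been grown for 4 weeks with stem cell factor and IL3 from the marrow of C57BL/6 males of 8 to 10 weeks. PEP+/+ BMMCs and PEP-/- BMMCs each received IgE, IgE with DNP, IgE with DEX, or IgE with DNP and DEX, and each of these 8 conditions had 2 replicates. All 16 samples had IgE (3 h, at 0.05 ug/ml by the labels, whereas the study's methods give a higher concentration), so no sample shows cells without IgE. DNP was given at 200 ng/ml for 1 h and DEX, dexamethasone, at 100 nM for 8 h. How many mice or cultures stand behind the samples is not given in the sources used here, so the p-values measure the spread between these samples.

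Pellino proteins are ubiquitin ligases with a RING domain that bind phosphorylated IRAK kinases below Toll-like and interleukin-1 receptors. TRAF proteins are adaptors that gather around activated receptors of the TNF, Toll-like and interleukin-1 families. Traf2, Traf3, Traf4, Traf5 and Traf6 carry a RING domain, whereas Traf1 lacks one and pairs with Traf2. Ubiquitin chains built by these complexes recruit the kinases that switch on NF-kB and MAP kinases, and Traf3 in addition holds back the noncanonical NF-kB kinase encoded by Map3k14. In mast cells, antigen that cross-links IgE on its high-affinity receptor triggers activation, and dexamethasone is an agonist of the glucocorticoid receptor.

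The genes lie on 6 chromosomes of GRCm38. By the GENCODE M21 annotation Peli1 (ENSMUSG00000020134) lies at chr11:21091291-21150323 on the plus strand, Peli2 (ENSMUSG00000021846) at chr14:48120823-48281575 on the plus strand and Peli3 (ENSMUSG00000024901) at chr19:4929717-4943127 on the minus strand. Traf1 (ENSMUSG00000026875), Traf2 (ENSMUSG00000026942) and Traf6 (ENSMUSG00000027164) share chromosome 2, at chr2:34941750-34961772 (minus), chr2:25517982-25546940 (minus) and chr2:101678429-101701669 (plus). Traf3 (ENSMUSG00000021277) lies at chr12:111166370-111267153 on the plus strand, Traf4 (ENSMUSG00000017386) at chr11:78158499-78165589 on the minus strand and Traf5 (ENSMUSG00000026637) at chr1:191997205-192092559 on the minus strand. All 9 are protein-coding.

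The sequences before the starts of 4 members are shown because the results turn on them: Traf1 and Peli1 rose most with DNP, Traf3 rose with DNP and holds a kB-type match, and Peli2 rose with DEX in DNP-treated cells. They are the RefSeq promoter sequences of GRCm38.p6, written 5′ to 3′ on the strand of the gene and ended at the GENCODE start of the gene. Capitals mark matches to the motifs named after them, which overlap no other match.
Traf1 (chr2:34961773-34962022, minus strand): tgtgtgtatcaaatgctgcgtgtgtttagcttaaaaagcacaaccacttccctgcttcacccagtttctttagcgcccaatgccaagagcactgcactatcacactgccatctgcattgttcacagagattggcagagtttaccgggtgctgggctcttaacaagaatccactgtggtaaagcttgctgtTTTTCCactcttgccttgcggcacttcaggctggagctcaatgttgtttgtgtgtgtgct
Traf3 (chr12:111166120-111166369, plus strand): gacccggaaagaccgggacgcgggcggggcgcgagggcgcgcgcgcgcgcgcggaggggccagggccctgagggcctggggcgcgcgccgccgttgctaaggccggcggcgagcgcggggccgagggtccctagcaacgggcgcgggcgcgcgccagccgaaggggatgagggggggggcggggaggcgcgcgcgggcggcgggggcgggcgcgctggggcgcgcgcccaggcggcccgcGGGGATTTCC
Peli1 (chr11:21091074-21091290, plus strand): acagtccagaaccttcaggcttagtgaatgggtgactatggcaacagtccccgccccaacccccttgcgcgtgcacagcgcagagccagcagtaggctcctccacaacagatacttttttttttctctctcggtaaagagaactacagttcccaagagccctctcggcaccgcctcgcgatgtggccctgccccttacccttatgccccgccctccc
Peli2 (chr14:48120619-48120822, plus strand): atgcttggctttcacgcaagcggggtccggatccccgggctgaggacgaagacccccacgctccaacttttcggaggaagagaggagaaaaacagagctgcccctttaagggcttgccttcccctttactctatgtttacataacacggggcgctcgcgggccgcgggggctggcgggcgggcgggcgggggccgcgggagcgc
No exon of another gene is annotated in these 4 windows, and the Traf3 window lies inside 4930595D18Rik on the opposite strand. The windows of all 9 members, from 250 bases before to 50 bases after the RefSeq start, were searched on both strands for 6 motifs, and so were all 32851 promoter sequences of that table. A kB-type motif was in 1.63% of all promoters and in 2 of the 9 members, in Traf3 as GGGGATTTCC directly before the start and in Traf2 as GGGTGTTTCC with its first base 31 bases after the start. The NFAT core GGAAAA was in 23.4% of promoters and in Traf1 and Peli3, in Traf1 on the opposite strand with its first printed base 60 bases before the start. The AP-1 motif TGANTCA (7.81% of promoters), the CRE TGACGTCA (1.79%), the palindromic glucocorticoid response element (0.00913%) and its single arm AGAACA (19.0%) had no match in the windows of the 9 members. A match is a string of letters in this window and was not tested for binding.

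Counted reads per sample ranged from 8612531 to 22143526 (median 12814043.5), so that 1 read stood for 0.0421 to 0.130 CPM, which are counts scaled to a common library size by the TMM method of edgeR. Ptpn22 had 11.3 to 175 CPM in PEP+/+ samples and 0 to 3.03 CPM in PEP-/- samples. All 10 mast cell markers were above 1 CPM in each sample, and their summed level was 63201 to 103724 CPM. The B cell gene Ms4a1 and the T cell genes Cd3e and Cd3g were at 0 throughout. The sample titles form 2 sets, numbered 1 to 8 (replicate 1) and lettered A to H (replicate 2), and samples of a set deviated together from their condition means. A fit with the set as a block is therefore given beside a result where it changes the call. Members of the families differed between the sets as well. In all 8 conditions Peli2 was lower in the lettered sample, by 0.93 on average on the log2 CPM scale, while Traf1 and Traf2 were higher there, by 0.88 and 0.51. The lettered set also had less of the summed neutrophil markers (0 to 0.257 against 1.15 to 2.35 CPM), mostly as Ly6g. It had on the whole more of the summed dendritic cell markers (4.98 to 17.3 against 1.17 to 6.74 CPM, Cd209a at 0), mostly as Itgax. The neutrophil markers S100a8, S100a9, Elane and Mpo were at most 0.260 CPM and the dendritic cell marker Flt3 at most 0.562 CPM. The part of these sums in the set differences of the members was not tested.

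Per length of exon, the families spanned a wide range of levels. Traf2 had the highest median over the 16 samples, 11.7 RPKM (CPM per kilobase of exon), followed by Traf6 (4.69), Traf3 (4.42), Traf5 (3.55), Peli1 (3.15) and Traf1 (1.66 RPKM). Peli2 (0.338), Traf4 (0.140) and Peli3 (0.0681 RPKM) were the lowest. Traf2 was above Traf6 in all 16 samples and Traf3 above Traf5 in 15, but Traf6 was above Traf3 in only 8 and Traf5 above Peli1 in 10, so these neighbours did not separate. With the longest transcript as the length Traf5 moved up to place 2 and Traf3 down to place 5. Peli3 had 1 to 19 reads per sample and Traf4 had 1 to 17, and although all 9 genes passed the filter on low counts, Peli3 was above its CPM minimum in 2 samples and Traf4 in 4, so both passed through their higher samples. The means of the 8 conditions differed most for Traf1 (26.3-fold from lowest to highest) and Peli2 (19.6-fold) and least for Traf6 (1.60-fold).

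**Figure D1:**
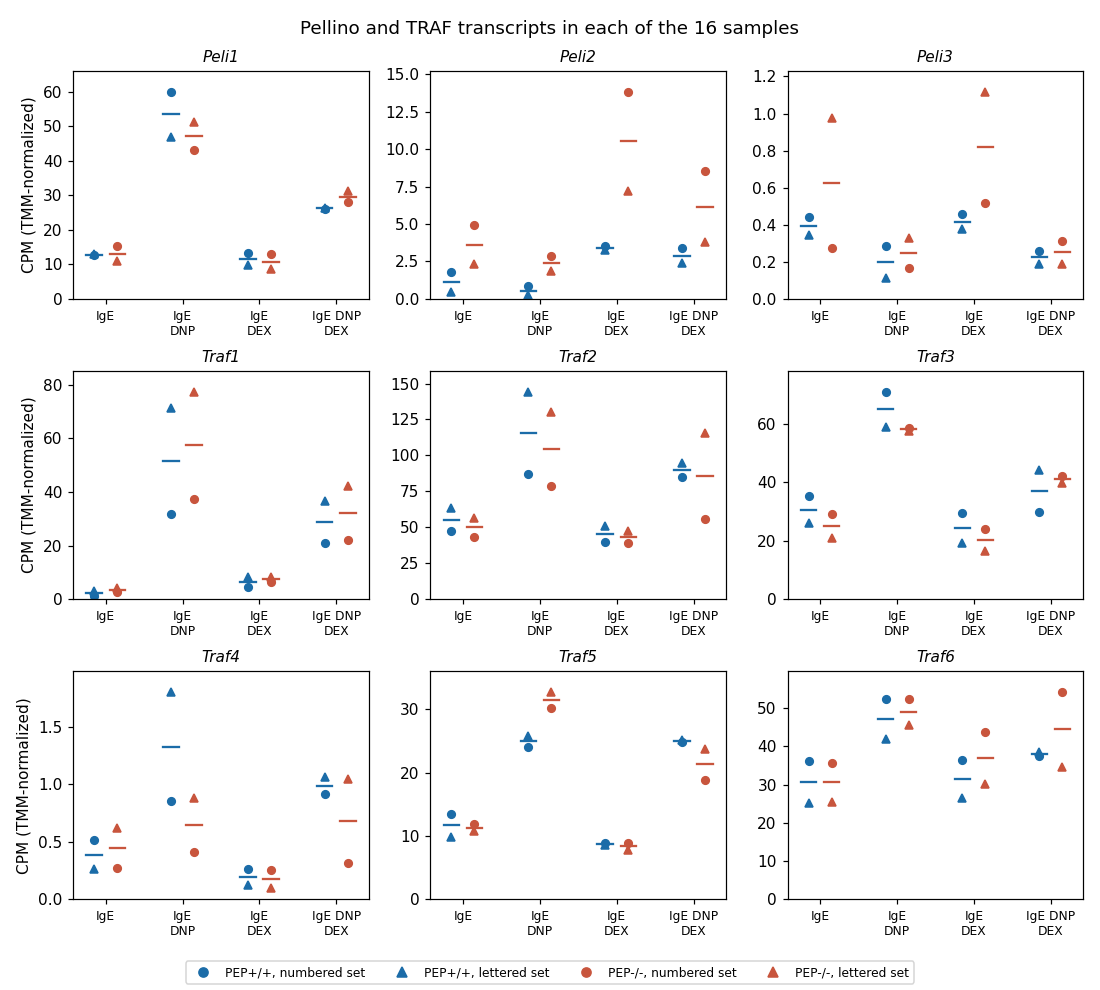
Each panel shows 1 gene in CPM (vertical axis, from 0) by treatment, with circles for the numbered and triangles for the lettered set, blue for PEP+/+, red for PEP-/- and bars for the means of 2 replicates. Peli1, Traf1, Traf2, Traf3 and Traf5 stand higher with DNP, and Peli2 stands higher with DEX.

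The first comparison asked which members respond to antigen. Over both genotypes, 5 of the 9 members rose with DNP in the absence of DEX (edgeR quasi-likelihood test, adjusted p under 0.05) and none fell. Among all 13305 genes tested, 9.07% rose. The 5 were Peli1, Traf1, Traf2, Traf3 and Traf5, and in each the 4 DNP samples lay above the 4 samples with IgE alone, as they did in Traf6 and in 11.6% of all genes. In bulk RNA a change in the number of cells of a type and a change of RNA per cell cannot be told apart. The summed basophil markers, mostly Cd200r3 (198 to 837 CPM over all samples), were higher with DNP too. They had 750 to 883 against 539 to 623 CPM without DEX and 431 to 479 against 229 to 393 CPM with DEX. Of this list Itga2 was at most 0.617 CPM over all samples, while Mcpt8 had 8.03 to 62.8 and Prss34 10.2 to 59.4 CPM. Summed mast cell markers had 69550 to 85549 CPM with DNP against 63201 to 72293 CPM, both without DEX. With DEX they had 80618 to 103724 against 70519 to 77778 CPM. The part of both sums in the DNP results was not tested. The median log2 fold change was 1.11 over the 9 members and -0.00065 over all genes.

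Traf1 rose the most. In PEP+/+ BMMCs it went from 1.25 and 3.12 CPM after IgE to 31.7 and 71.3 CPM after IgE DNP. In PEP-/- BMMCs it went from 2.82 and 4.22 to 37.6 and 77.4 CPM. In each genotype the lettered DNP sample was the higher one, and no IgE sample reached the lower one. The log2 fold change was 4.29 ± 0.45 (SE), or 19.6-fold (edgeR adjusted p = 7.08e-05).

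Peli1, a Pellino ligase that acts downstream of IRAK kinases, rose by 1.96 ± 0.18 on the log2 scale, or 3.90-fold (edgeR adjusted p = 2.87e-05). Its levels were 12.6 and 12.9 CPM after IgE against 60.1 and 46.9 CPM after IgE DNP in PEP+/+ BMMCs, and 15.2 and 10.9 against 43.1 and 51.2 CPM in PEP-/- BMMCs. The IgE samples of both genotypes were within a narrow range and the DNP samples all stood clear of it.

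Traf5, an adaptor of TNF receptor family members, rose 2.44-fold (log2 fold change 1.29 ± 0.14, edgeR adjusted p = 0.000114). It had 13.5 and 9.89 CPM after IgE and 24.1 and 25.9 CPM after IgE DNP in PEP+/+ BMMCs, and 11.8 and 10.8 against 30.3 and 32.7 CPM in PEP-/- BMMCs. Traf5 shares 205 exon bases with the antisense gene Gm26879, which had 0 to 1 reads per sample. Traf3 rose 2.23-fold (1.16 ± 0.21, edgeR adjusted p = 0.00291), with 35.2 and 25.9 CPM after IgE and 71.0 and 59.1 CPM after IgE DNP in PEP+/+ BMMCs, and 29.0 and 20.8 against 58.7 and 57.7 CPM in PEP-/- BMMCs. Traf2, the most abundant member, rose 2.10-fold (1.07 ± 0.26, edgeR adjusted p = 0.0163). Its values were 47.1 and 63.2 against 87.4 and 144 CPM in PEP+/+ BMMCs and 43.2 and 56.6 against 79.0 and 130 CPM in PEP-/- BMMCs. The lettered sample of Traf2 was the higher of each pair.

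Traf6, the ligase that works with Ube2n below interleukin-1 and Toll-like receptors, changed least among the abundant members. Its DNP samples (42.0 to 52.4 CPM) lay above the IgE samples (25.2 to 36.2 CPM), yet the difference of 0.65 ± 0.21 on the log2 scale missed the threshold (edgeR adjusted p = 0.0573) and passed it with the sets as a block (0.66, adjusted p = 0.000252). Peli2, Peli3 and Traf4 did not pass the test in either fit. Peli2 had a log2 fold change of -0.80 (95% interval -1.94 to 0.34) and Peli3 had -1.13 (-2.36 to 0.10). Both were lower with DNP in 4 of 4 differences within a set and genotype, a count whose share over all genes is not given here. Peli3 was above the CPM minimum of the filter only in 2 samples, both PEP-/- and without DNP. It was thus tested through the groups in which it was high. Traf4 had 1.11 (-0.07 to 2.29). At their few reads, smaller changes of Peli3 and Traf4 were not detectable.

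In the presence of DEX, DNP raised 6 of the 9 members and lowered none, against 7.19% of all genes raised. These were the 5 members above and Traf4, which was above the CPM minimum of the filter only in samples with DNP and so was tested through the group in which it was high. Traf5 kept the size of its response, from 8.93 and 8.62 CPM after IgE DEX to 24.9 and 25.2 CPM with DNP added in PEP+/+ BMMCs, and from 8.92 and 7.83 to 18.9 and 23.8 CPM in PEP-/- BMMCs (2.69-fold, log2 fold change 1.43 ± 0.15, edgeR adjusted p = 0.0001). Peli1 rose 2.50-fold (1.32 ± 0.18, edgeR adjusted p = 0.000681) and Traf1 by 2.14 ± 0.41 on the log2 scale (edgeR adjusted p = 0.0057). For Traf2 the fold was 1.98 (edgeR adjusted p = 0.0318) and for Traf3 1.75 (edgeR adjusted p = 0.0273). Traf4 had 0.102 to 0.261 CPM after IgE DEX and 0.313 to 1.06 CPM after IgE DNP DEX (2.04 ± 0.58 on the log2 scale, edgeR adjusted p = 0.0412), which rests on 1 to 17 reads per sample. The calls of Traf2, Traf3 and Traf4 were lost when the fit held only the conditions compared, with adjusted p-values of 0.0523, 0.0691 and 0.0957.

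**Figure D2:**
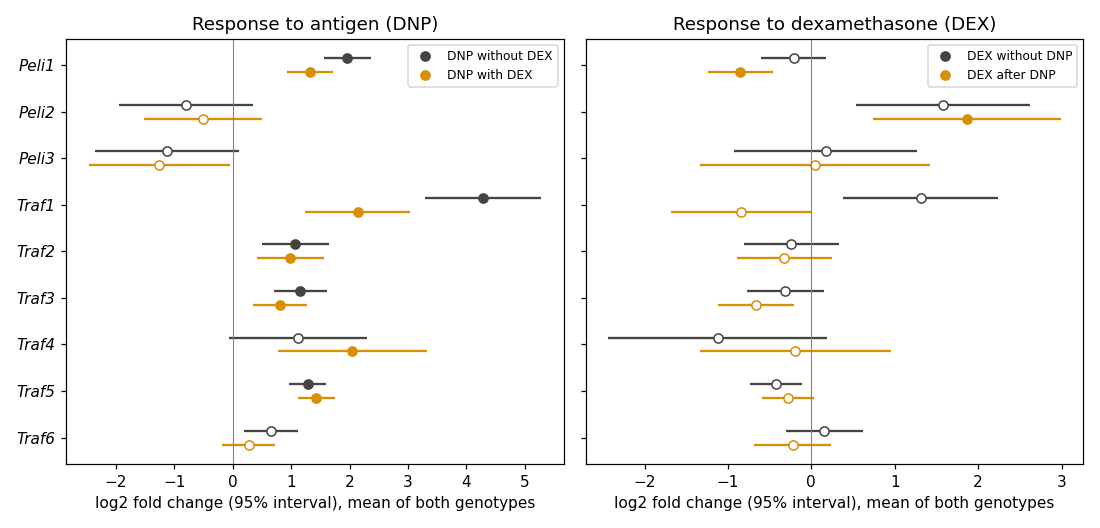
Points show the log2 fold change of each member over both genotypes (horizontal axis) with its 95% interval, for DNP on the left and for DEX on the right, and filled points passed the adjusted p of 0.05. Traf1 has the largest response to DNP (4.29 without DEX and 2.14 with DEX), and Peli2 is the member with the largest response to DEX (1.58 without DNP and 1.87 with DNP).

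The second comparison asked which members respond to DEX. In cells without DNP, 0 of the 9 members passed the test, against 9.37% of all genes in either direction, with 3 members and 2578 of all 13305 genes at an unadjusted p under 0.05. DESeq2 called 2 members and 1620 genes. With the sets as a block 3 members passed, against 26.7% of all genes: Peli2 (log2 fold change 1.65, adjusted p = 0.0001) and Traf1 (1.37, adjusted p = 1.48e-05) were higher and Traf5 (-0.42, adjusted p = 0.0261) was lower. Without the block their edgeR adjusted p-values were 0.0641, 0.0866 and 0.105. In DNP-treated cells, 2 of the 9 members passed, against 10.7% of all genes in either direction. Peli2 was higher and Peli1 was lower with DEX. With the block 4 members passed, against 33.3% of all genes, as Traf1 (-0.81, adjusted p = 0.000124) and Traf3 (-0.64, adjusted p = 0.00552) were lower too. By the ranges given above, the summed basophil markers, mostly Cd200r3, were lower with DEX both without and with DNP. The summed mast cell markers were on the whole higher with DEX. The part of both sums in these results was not tested.

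Peli2 had its highest levels under DEX in both genotypes. In PEP+/+ BMMCs the levels were 1.76 and 0.434 CPM after IgE, 0.851 and 0.225 CPM after IgE DNP, 3.52 and 3.28 CPM after IgE DEX, and 3.38 and 2.37 CPM with all 3 agents. In PEP-/- BMMCs they were 4.92 and 2.31 CPM after IgE, 2.87 and 1.87 CPM after IgE DNP, 13.8 and 7.22 CPM after IgE DEX, and 8.52 and 3.81 CPM with all 3 agents. Within each genotype every DEX sample lay above the DNP samples without DEX, and the share of all genes with this separation is not given here. In PEP-/- BMMCs the DEX samples overlapped those with IgE alone, as IgE DNP DEX replicate 2 (3.81 CPM) was below IgE replicate 1 (4.92 CPM). Over both genotypes, samples with and without DEX overlapped, both without and with DNP. In DNP-treated cells the log2 fold change with DEX was 1.87 ± 0.51, or 3.65-fold (edgeR adjusted p = 0.0396). Without DNP it was 1.58 ± 0.48, or 2.99-fold (edgeR adjusted p = 0.0641). The smallest sample held 2 reads of Peli2 and the largest 267, and leaving out 1 sample moved the adjusted p in DNP-treated cells between 0.0275 and 0.121. Without PEP+/+ IgE DNP replicate 1 the log2 fold change there was 2.52, and without PEP+/+ IgE replicate 1 that of cells without DNP was 2.26. Peli2 shares 869 exon bases with Gm6498, a transcribed processed pseudogene on the same strand, where a read could be assigned to neither gene. Gm6498 had 2 to 20 reads per sample, and none of its 4 treatment comparisons passed the test without the block.

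Peli1 fell with DEX in DNP-treated cells, to 26.0 and 26.4 CPM in PEP+/+ and 27.9 and 31.2 CPM in PEP-/- BMMCs. These were all below the 43.1 to 60.1 CPM of the samples without DEX, and the share of all genes with this separation is not given here. The log2 fold change was -0.85 ± 0.18 (edgeR adjusted p = 0.0101), a decrease of 1.80-fold. Without DNP, DEX left it at 8.64 to 13.2 CPM against 10.9 to 15.2 CPM, and the change of -0.21 had a 95% interval of -0.60 to 0.18. Levels of Peli1 with both agents stayed above those of IgE alone in all 4 differences within a set and genotype, again without a share over all genes.

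Traf1 was higher with DEX in cells without DNP and lower with DEX in DNP-treated cells, each by the fit with the block. Without DNP it had 1.25 to 4.22 CPM in the 4 samples after IgE, against 4.50 and 8.37 CPM in PEP+/+ and 6.38 and 8.44 CPM in PEP-/- BMMCs, a difference of 1.31 ± 0.42 on the log2 scale (edgeR adjusted p = 0.0866 without the block). With DNP it was 20.8 and 36.5 CPM in PEP+/+ and 22.1 and 42.2 CPM in PEP-/- BMMCs, a difference of -0.84 ± 0.39 from the samples without DEX (edgeR adjusted p = 0.214 without the block). Each direction was seen in 4 of 4 differences within a set and genotype, a count whose share over all genes is not given here. Without DNP, all members but Peli1 went in a single direction with DEX in 4 of 4. The response of Traf1 to DNP was smaller with DEX by 2.15 ± 0.57 on the log2 scale, a difference with an edgeR adjusted p of 0.375 over all genes and of 3.55e-05 with the block (-2.18). Among all genes 0.331% passed this test of the interaction, and 1.57% with the block, while of the 9 members 0 passed, and 1 with the block. At an unadjusted p under 0.05 there were 2 members, Traf1 and Peli1, and 485 of all 13305 genes, and DESeq2 called 1 member and 97 genes. The difference was nearly the same in both sets, -2.12 in the numbered and -2.10 in the lettered samples.

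**Figure D3:**
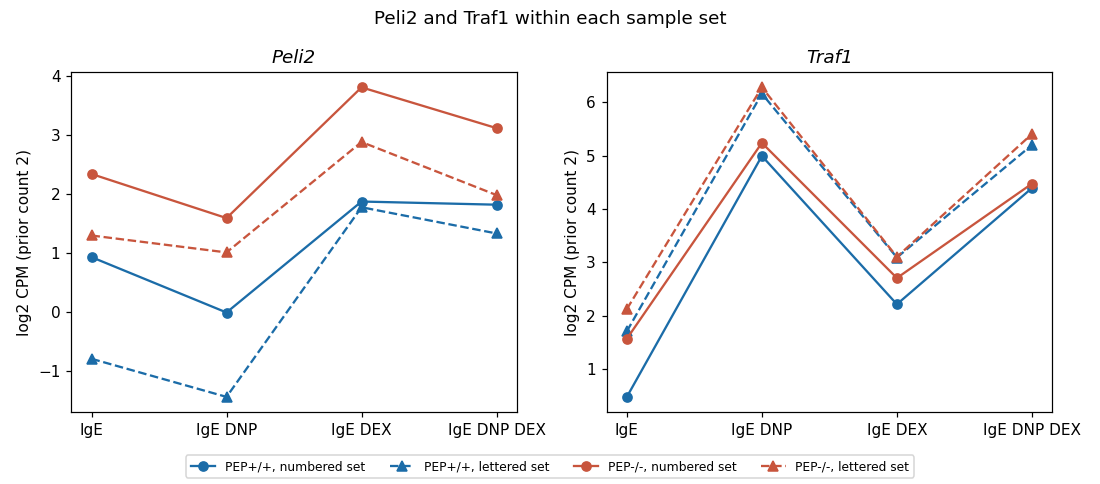
Lines join the 4 treatments of 1 genotype and 1 sample set for Peli2 (left) and Traf1 (right), on the log2 CPM scale with a prior count of 2. The lettered Peli2 lines run below the numbered ones by 0.93 on average and the lettered Traf1 lines above them by 0.88, while the shape over treatments is shared.

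The third comparison asked how the members differ between genotypes. Peli2, chosen by this contrast, was higher in PEP-/- BMMCs by 1.62 on the log2 scale averaged over the treatments, or 3.08-fold. The difference was 1.67 in cells with IgE alone, 2.07 with DNP, 1.64 with DEX and 1.12 with both agents. Within a treatment and set it ranged from 0.65 to 2.45 and was above 0 in 8 of 8, as in 6.38% of all genes, from which nothing is read for a gene chosen this way. The macrophage or monocyte markers were summed to a median of 27.4 CPM (17.6 to 38.4) in PEP+/+ and 41.3 CPM (29.7 to 55.4) in PEP-/- samples, mostly as Cd68, and their part in the level of Peli2 was not tested.

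None of the 8 other members passed the test between genotypes, in which 1.59% of all genes passed, and none was at an unadjusted p under 0.05. The averaged differences were well bounded for Traf5 (0.00, 95% interval -0.22 to 0.22), Peli1 (-0.02, -0.29 to 0.26), Traf6 (0.12, -0.20 to 0.45) and Traf3 (-0.14, -0.47 to 0.18). They were less so for Traf2 (-0.11, -0.51 to 0.30), Traf1 (0.31, -0.32 to 0.93), Peli3 (0.54, -0.33 to 1.42) and Traf4 (-0.31, -1.20 to 0.58). Peli3 passed the filter through PEP-/- samples only, so here too it was tested through the group in which it was high. Traf1 was higher in PEP-/- samples in 8 of 8 differences within a treatment and set, as were 6.38% of all genes, with 0.01 as its smallest difference, and it passed with the sets as a block (0.33, adjusted p = 0.0354), a fit in which 17.4% of all genes passed. Within single treatments 0 of these 8 members passed, against 1 gene or 0.00752% of all genes in each of the 4 treatments. No gene of the table (0%), these members included, passed a test of whether the response to DNP without DEX, or to DEX in DNP-treated cells, differed between genotypes in edgeR, with 30 genes for DNP and 95 for DEX at an unadjusted p under 0.05 and 0 in DESeq2.

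Around the 9 members, 66 other genes of the pathway were followed in 4 lists, of which 65 passed the filter on low counts (all but Ube2v1). With DNP in the absence of DEX, 22 rose, 4 fell and 39 did not pass, where 16.7% of all genes passed in either direction. With the block 28 were higher and 9 lower, where 37.9% of all genes passed. The list of deubiquitinases and inhibitors, which also holds the TRAF-binding proteins Tank and Tifa, had 7 of 17 higher and 0 lower. Its median was 0.23 on the log2 scale. Tnip3, a ubiquitin-binding partner of A20, rose by 8.02 ± 0.64 (edgeR adjusted p = 9.87e-06), from 0.455 to 0.520 CPM in 4 samples to 67.0 to 204 CPM. Like Traf4, Tnip3 was above the CPM minimum of the filter only in samples with DNP. It was thus tested through the group in which it was high. Tnfaip3, which encodes A20, rose by 3.22, Tax1bp1, an adaptor of A20, by 2.34, and Zc3h12a, an RNase that limits inflammatory transcripts, by 2.20. Receptor-proximal adaptors and kinases had 7 of 18 higher and 2 lower (median 0.08), led by Ripk2 (1.82), Tollip (1.63) and Malt1 (1.15).

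Other ubiquitin ligases and conjugating enzymes had 6 of 16 higher and 0 lower with DNP (median 0.27). Rnf31, of the linear chain assembly complex, rose by 0.99, Siah2 by 0.96 and Ube2n, the conjugating enzyme with which Traf6 works, by 0.59. Kinases that TRAF complexes activate were listed with their regulatory subunits Tab1, Tab2, Tab3 and Ikbkg. Of these 14 genes 2 were higher and 2 lower (median 0.14). Map3k8 rose by 3.78 and Map3k14, the kinase that Traf3 holds back, by 2.46, whereas Tab1 and Map3k1 fell by 1.03 and 0.78. Irak1, Irak4 and Map3k7, the partners of Pellino proteins and of Traf6, had log2 fold changes of 0.06, -0.24 and 0.07 and did not pass.

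With DEX in cells without DNP, 10 of the 65 genes were higher and 2 lower (14 and 9 with the block), where 9.37% of all genes passed in either direction and 26.7% with the block. Those higher included Trim25 (1.72), Tnfaip3 (1.47), Birc3 (1.45), Map3k8 (1.42), Map3k1 (1.33) and Tollip (1.14). In DNP-treated cells 4 were higher and 5 lower, where 10.7% of all genes passed, and with the block 10 and 15, where 33.3% did. Birc3, a ligase that binds Traf2, rose by 1.44, Map3k1 by 1.30, the inhibitory kinase Irak3 by 1.24 and Trim25 by 0.81. Among those lower, Tnip3 fell by 2.93, Ripk2 by 0.99, Tax1bp1 by 0.70 and Rnf11 by 0.59. The DNP response was smaller with DEX for Map3k8 (-2.07, edgeR adjusted p = 0.0198), Tnfaip3 (-1.64, adjusted p = 0.0346) and Ripk2 (-1.30, adjusted p = 0.0457). The log2 fold changes of these 3 with DEX were 1.42, 1.47 and 0.31 without DNP, where Map3k8 and Tnfaip3 passed, and -0.65, -0.18 and -0.99 with DNP, where Ripk2 passed. These 3 of the 65 genes passed this test of the interaction without the block, where 0.331% of all genes passed. With the block 8 of the 65 passed, all in the negative direction, where 1.57% of all genes passed. Between genotypes 0 of the 65 passed, where 1.59% of all genes passed. With the block 5 were higher and 3 lower, where 17.4% of all genes passed.

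**Figure D4:**
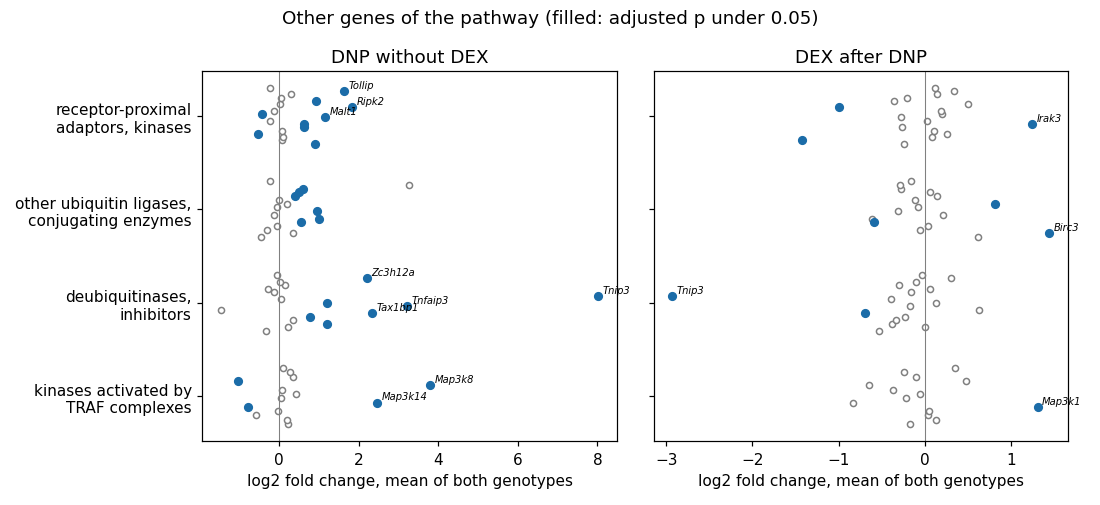
Each point is 1 of 65 pathway genes by list (rows), placed by its log2 fold change over both genotypes with DNP in the absence of DEX (left) and with DEX in DNP-treated cells (right), and filled points passed the adjusted p of 0.05. On the left 22 filled points lie above 0 and 4 below, with Tnip3 at 8.02, and on the right 4 lie above and 5 below.

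The genes whose levels ran most like those of 3 members were found by the Pearson correlation of log2 CPM over the 16 samples, which share libraries, treatments and sets, so the values are a description. For Peli1 they were Fam107b (0.982), Cldnd1, Rbpj, Mmd and Ccl7 (0.979). For Traf1 they were Sik1 (0.984), Herpud1 (0.973), Plaur, Rela, which encodes an NF-kB subunit, and Gpr171 (0.969). For Peli2 they included Inpp5k (0.953), Stat3, Apol7e and Wipi1 (0.941). By Spearman correlation 1 of the 5 for Peli1, 2 for Peli2 and 2 for Traf1 stayed among the top 5. Among the members themselves, Peli1 ran closest to Traf3 (0.945) and Traf5 (0.933), and Peli2 had no correlation above 0.396 with any member. The lowest correlations of Peli2 were -0.566 with Traf2, -0.535 with Traf4 and -0.448 with Traf3.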

How the data were processed

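RNA of 16 BMMC samples was sequenced as stranded, poly(A)-selected libraries with paired reads. The authors used TopHat2 for the alignment to GRCm38 and HTSeq to count reads per gene, and deposited the raw counts of each sample. The strand setting of the counting is not given in the sources used here. Rows for reads assigned to no single gene held 29.1% to 49.6% of the reads in the deposited counts and were left out. Most of these had no unique alignment, and the rest lay in no gene or were ambiguous between genes. Gene positions came from GENCODE M21, in which 37693 of 39179 identifiers (96.207%) were found.

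Normalization (TMM) and the quasi-likelihood test (glmQLFit, glmQLFTest) were run in edgeR 4.0.16 under R 4.3.3 over all 16 samples with 1 mean per condition. The 13305 genes kept by filterByExpr (minimum count 10) were tested and p-values adjusted by the Benjamini-Hochberg method over all of them, with 0.05 as the threshold. The common biological coefficient of variation was 0.312. Treatment effects are the mean of both genotypes. The text names all 9 members, up to 4 called genes with the largest change per pathway list and comparison, further pathway genes named after their values were seen (Ube2n, Irak1, Irak4, Map3k7), and the 5 genes most like Peli1, Peli2 and Traf1. Some genes that this rule names are not reported here. Members and lists were chosen with earlier results of these data known. The code was tested on simulated data.

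The sets come from the sample titles (numbers or letters). In all 28 pairs of conditions, same-set deviations correlated (lowest 0.453, mean 0.672), so the set was used as a replicate block in an alternative fit. Other alternatives were DESeq2 1.42.0, DESeq2's size factors, no filter, a minimum of 10 counts in every sample, a fit of only the conditions compared, a fold change of at least 2 and each sample left out. No exact interval is given for single counts. Reads carry no molecular identifiers, so counts are not counts of independent molecules.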

Additional observations from a re-analysis of the deposited data

Results flagged for a closer look

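Traf1 stood out because its response to DNP differed between cells with and without DEX by a test of the difference itself, with the sample sets as a replicate block. The difference was -2.18 on the log2 scale (edgeR adjusted p = 3.55e-05), and the response was smaller with DEX in both sets. Without the block it was -2.15 and did not pass (edgeR adjusted p = 0.375).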

How the results depend on the processing

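No named value of a member changed direction under any alternative. Of 21 such values, DESeq2's size factors left all 21 on their side of the threshold, and the replicate block moved 8 past it and ended no call. The number of members called was 5 for DNP without DEX and 6 with DESeq2, no filter, a minimum of 10 counts in every sample or the replicate block. A minimum of 10 counts in every sample left Peli2, Peli3 and Traf4 untested, as their lowest counts were 2, 1 and 1. For DEX without DNP it was 0, but 2 with DESeq2, 2 with no filter and 3 with the replicate block. For DEX in DNP-treated cells it was 2, but 3 with DESeq2, 4 with no filter, 4 with the replicate block, and 1 each with a minimum of 10 counts in every sample, with only the conditions compared and with a fold change of at least 2. For DNP with DEX it was 6, but 3 with only the conditions compared, 4 with a fold change of at least 2 and 5 with a minimum of 10 counts in every sample. For the interaction of DNP and DEX it was 0, but 1 with DESeq2, 1 with no filter and 1 with the replicate block. Between genotypes it was 0 without Peli2, but 1 with the replicate block. The cause was not tested.

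With each sample left out in turn the members called were 4 to 6 for DNP without DEX, 0 to 1 for DEX without DNP, 1 to 2 for DEX in DNP-treated cells, 3 to 6 for DNP with DEX, and 0 for the interaction of DNP and DEX and between genotypes. A condition left with 1 sample was taken to vary like the others. Every call of Peli1, Traf1 and Traf5 and the call of Traf3 for DNP without DEX remained. Traf2 lost its DNP call (adjusted p 0.0633 to 0.0803) without PEP+/+ or PEP-/- IgE replicate 1 or IgE DNP replicate 2. With DEX, the DNP call of Traf2 was lost (0.0642 to 0.135) without any 1 of the IgE DEX or IgE DNP DEX samples but PEP-/- IgE DNP DEX replicate 1, that of Traf3 (0.056 to 0.114) without replicate 2 of any of these conditions or PEP-/- IgE DNP DEX replicate 1, and that of Traf4 (0.0522 to 0.204) without any 1 of the IgE, IgE DEX and IgE DNP DEX samples but PEP-/- IgE DNP DEX replicate 1. The DEX call of Peli2 was lost (0.0564 to 0.121) without PEP+/+ IgE DNP replicate 2, PEP-/- IgE DNP replicate 1 or 2, PEP-/- IgE DNP DEX replicate 1, or any PEP+/+ IgE DEX or IgE DNP DEX sample. Without PEP+/+ IgE replicate 1, Peli2 passed for DEX without DNP (0.0345), and without either PEP-/- IgE DNP DEX sample Traf6 passed for DNP (0.0486 and 0.0494).

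Over all genes the replicate block called 5042 against 2216 for DNP, 5007 against 1678 for DNP with DEX, 3548 against 1247 for DEX, 4429 against 1418 for DEX in DNP-treated cells, 209 against 44 for the interaction and 2310 against 212 between genotypes. For the interaction of DNP and DEX, DESeq2 called 97 and no filter 107. DESeq2 called 668 and no filter 472 between genotypes, and only the conditions compared gave 805 for DEX in DNP-treated cells and 953 for DNP with DEX. With no filter 3 and 24 genes against 0 passed for genotype-dependent responses to DNP without DEX and to DEX in DNP-treated cells. Between genotypes within a treatment the replicate block called 225 (IgE), 248 (IgE DNP), 75 (IgE DEX) and 3 (IgE DNP DEX) against 1 each. With 250 bases before the start searched, the kB-type motif was in 1 member. Depth limits Peli3 and Traf4.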
